A study of Mus musculus with 15 samples.

Results

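The counts of single mouse oocytes were examined for 8 noncoding RNA genes: the gene ID ENSMUSG00000119584, for which no table used here gives a symbol, and 7 named genes, Malat1, Neat1, Meg3, Kcnq1ot1, Rn7sk, Rmrp and Rpph1. ENSMUSG00000119584 was chosen by its large share of the counts of MII oocytes, and the named genes were set beside it as noncoding RNAs. Its share and its difference between stages are therefore a description with no test. Of the 28785 gene IDs with a count in at least 1 oocyte, 6 were members of this group, and Rn7sk and Rmrp were listed in no oocyte. The transcriptomes came from MATQ-seq, which amplifies the total RNA of single cells, in 9 oocytes at the germinal vesicle (GV) stage, arrested in meiotic prophase, and 6 at metaphase of the second meiotic division (MII). Both stages came from female mice about 6 to 8 weeks old, and the labels name neither strain nor animal. For the GV stage, mice received 7 IU of PMSG (pregnant mare serum gonadotropin) and fully grown oocytes were taken 44 h later. For the MII stage, 7 IU of PMSG was followed about 48 h later by 7 IU of human chorionic gonadotropin, and eggs were taken from the oviducts 20 h after that and their cumulus cells were removed with hyaluronidase at 300 IU/mL.

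The named genes fall into roles that are known from other cells. Malat1 is a long RNA of nuclear speckles and Neat1 is the scaffold of paraspeckles, nuclear bodies built by RNA-binding proteins such as Nono, Sfpq and Pspc1. Meg3 and Kcnq1ot1 are imprinted long RNAs, Meg3 made from the maternal allele of the Dlk1 cluster and Kcnq1ot1 from the paternal allele of the Kcnq1 cluster, which it helps to silence. Rn7sk, Rmrp and Rpph1 are short RNAs made by RNA polymerase III. Rn7sk holds the elongation kinase P-TEFb inactive with the proteins Hexim1, Hexim2, Larp7 and Mepce. Rmrp is the RNA of RNase MRP, which cuts precursor ribosomal RNA, and Rpph1 is the RNA of RNase P, which trims precursor tRNA. Fully grown GV oocytes have largely stopped transcription, and the MII egg relies on stored RNA.

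The tables used here, GENCODE M21 and RefSeq of the older build GRCm38.p6, do not hold the ID ENSMUSG00000119584. As background from general knowledge, newer Ensembl releases list this ID as Rn18s-rs5, a copy of the gene for 18S ribosomal RNA, the RNA of the small ribosomal subunit. That pairing could not be looked up in the files used here. RefSeq GRCm38.p6 lists Rn18s-rs5 as a pseudogene of 1849 nt on chromosome 17, with Gm42418 among its older names and with no Ensembl ID. In GENCODE M21, Gm42418 is a lincRNA entry of 1831 nt. Also from general knowledge, it was put in a group of 4 entries of the ribosomal repeat. The others are Gm26917 (3329 nt), AY036118 (923 nt) and CT010467.1 (an rRNA entry of 2466 nt). All 4 had 0 counts in all 15 oocytes. The first 300 bases of the GENCODE M21 transcript of Gm42418 are shown because RefSeq gives Gm42418 as an older name of Rn18s-rs5. Capitals mark bases 156 to 300, part of a run of 923 bases that AY036118 carries on the opposite strand. CT010467.1 carries bases 1 to 1244 of Gm42418 on the opposite strand as well. Of the 1782 words of 50 letters in the Gm42418 transcript, 95.0% occur in AY036118 or CT010467.1. Gm26917 shared no such word with Gm42418.
Gm42418: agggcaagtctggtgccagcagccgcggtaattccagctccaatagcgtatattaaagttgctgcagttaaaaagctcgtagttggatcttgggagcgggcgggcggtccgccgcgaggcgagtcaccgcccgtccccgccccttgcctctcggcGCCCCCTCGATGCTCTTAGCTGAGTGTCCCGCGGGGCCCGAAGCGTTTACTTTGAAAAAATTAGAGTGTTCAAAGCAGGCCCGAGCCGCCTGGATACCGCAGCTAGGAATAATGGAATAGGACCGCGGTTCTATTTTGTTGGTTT

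The 3 short RNAs are shown because each shares much of its sequence with another annotated gene, and the treatment of reads that match several genes is not stated in the labels or headers. The first 300 bases of Rn7sk and Rpph1 and all of Rmrp are given as GENCODE M21 has them. In Rn7sk the capitals mark bases 1 to 241, the longest run also present in Gm24447, an annotated copy. In Rpph1 the capitals mark bases 36 to 268, the longest run also present in the overlapping coding gene Ccnb1ip1 on the same strand. Rmrp is printed in capitals throughout because the second Rmrp entry of GENCODE M21 repeats all 271 bases.
Rn7sk: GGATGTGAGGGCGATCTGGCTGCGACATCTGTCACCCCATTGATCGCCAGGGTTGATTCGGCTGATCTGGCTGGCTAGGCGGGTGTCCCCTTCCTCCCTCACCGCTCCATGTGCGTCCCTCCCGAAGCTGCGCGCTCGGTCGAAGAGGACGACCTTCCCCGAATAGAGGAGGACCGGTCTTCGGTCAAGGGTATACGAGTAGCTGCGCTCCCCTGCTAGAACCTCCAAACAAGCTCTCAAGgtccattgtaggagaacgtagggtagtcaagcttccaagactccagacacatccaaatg
Rpph1: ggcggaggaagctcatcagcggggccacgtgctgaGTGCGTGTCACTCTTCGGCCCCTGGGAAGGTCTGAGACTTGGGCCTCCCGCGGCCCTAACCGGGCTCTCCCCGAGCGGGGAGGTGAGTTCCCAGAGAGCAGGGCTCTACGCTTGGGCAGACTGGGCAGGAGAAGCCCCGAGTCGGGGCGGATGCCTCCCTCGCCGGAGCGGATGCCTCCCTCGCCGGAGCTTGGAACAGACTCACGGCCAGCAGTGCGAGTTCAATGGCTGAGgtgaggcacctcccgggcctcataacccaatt
Rmrp: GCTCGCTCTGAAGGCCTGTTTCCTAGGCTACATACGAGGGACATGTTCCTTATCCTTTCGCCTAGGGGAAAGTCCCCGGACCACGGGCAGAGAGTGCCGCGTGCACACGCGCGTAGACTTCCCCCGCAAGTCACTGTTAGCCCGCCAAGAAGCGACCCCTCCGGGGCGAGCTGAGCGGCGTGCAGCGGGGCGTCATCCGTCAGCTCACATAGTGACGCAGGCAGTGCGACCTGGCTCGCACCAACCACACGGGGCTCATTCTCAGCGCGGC
Of the words of 50 letters, 68.1% of those in Rn7sk occur in 7 other genes, none of which had a count. For Rmrp this share was 100%, all of it in the second entry, which had 0 counts. Ccdc107, with 399 counts, carried 75 of the 222 words on the opposite strand, between bases 36 and 159. For Rpph1 it was 68.2%, all in Ccnb1ip1, which had 47 counts in GV and 2 in MII. The long RNAs shared less: 6.36% for Malat1, 8.14% for Meg3, 1.72% for Kcnq1ot1 and 1.37% for Neat1.

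ENSMUSG00000119584 was the most abundant ID in every oocyte in which it was listed. It took 33.7%, 16.01%, 15.8%, 34.0%, 52.6% and 61.2% of all counts in MII1 to MII6. In GV7, GV8 and GV9 it took 7.60%, 3.43% and 11.2%, and in GV1 to GV6 it was listed in no file and was taken as 0. Every MII oocyte was therefore above every GV oocyte, and the spread within MII reached from the low value of MII3 to the high value of MII6. The mean share was 35.5% ± 18.6 in MII (SD, n = 6) and 2.47% ± 4.18 in GV (SD, n = 9). Over the summed counts it was 38.3% in MII (exact binomial 95% interval 38.31% to 38.37%) and 1.97% in GV (1.963% to 1.971%). These intervals, and those below, cover counting error only, since amplified reads are not independent molecules. The spread between oocytes was far wider than the counting error.

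**Figure D1:**
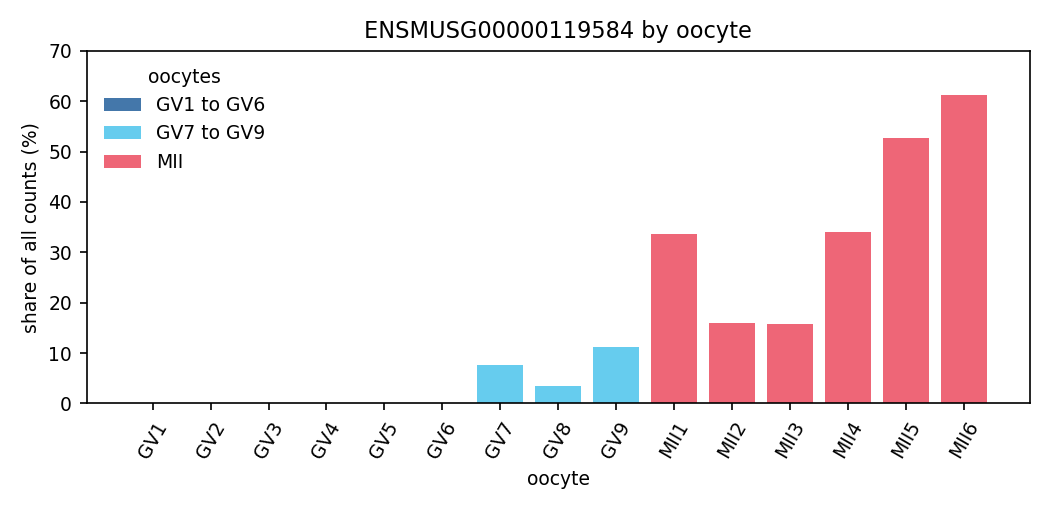
Share of all counts (%) taken by ENSMUSG00000119584 in each of the 15 oocytes, coloured by stage and, for GV, by set of deposited files. The bars of MII1 to MII6 lie between 15.75% and 61.2%, those of GV7 to GV9 between 3.433% and 11.18%, and GV1 to GV6 are at 0.

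The counts of ENSMUSG00000119584 in MII ran from 216456 in MII3 to 1437204 in MII6, a 6.64-fold range. The summed counts of all other genes ran from 536101 to 1277878, and a sum over many genes varies less than a single gene can. The next most abundant gene was Zbed3 in 5 MII oocytes and Lars2 in MII2, and ENSMUSG00000119584 exceeded it 13.7-fold to 39.9-fold. In GV7 to GV9, where Zbed3 came next, the excess was 2.22-fold to 8.72-fold. Per count of all other genes together, the feature was 7.80-fold higher in MII than in GV7 to GV9, a log2 difference of 2.96. Relative to the median measured gene the log2 ratio was 3.18 against GV7 to GV9 and 5.24 against all GV oocytes, with a spread of 8.18 that came from the GV oocytes at 0.

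Leaving this ID in the total lowered every other gene's level in CPM (the counts of a gene over the total of its library, rescaled alike in every library) by an amount that differed between oocytes. The factor ranged from 1.187 (MII3) to 2.577 (MII6), 1.04 to 1.13 in GV7 to GV9 and 1 in GV1 to GV6. For this reason the CPM below take their total from the counts without ENSMUSG00000119584. The ratios below are log2 MII/GV of summed counts, with 0.5 added to each sum, relative to the median measured gene, where measured means 5 CPM or more in GV or in MII. That median gene stood at -0.29 in CPM without the feature and at -0.95 in CPM of all counts, so a ratio below is lower by those amounts on either scale. Each ratio is followed by ± and a spread, the root of the summed squares of both stages' SDs over oocytes (n = 9 and 6).

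The deposited files fall into sets that bear on the values at 0. The column headers begin with Y in GV1 to GV6 and with E in GV7 to GV9, and all 6 MII files share another header, so that stage and set cannot be told apart. Each file lists only IDs with at least 1 count. ENSMUSG00000119584 was the 1 ID of 28785 that no file of GV1 to GV6 listed and every other file did. The reverse patterns were not unique: 6 IDs were missing from GV7 to GV9 and listed in every other oocyte, the one with most counts being Tox3, and 93 were missing from MII alone, led by Ccnd2. IDs newer than any named in GENCODE M21 were not missing from GV1 to GV6, which listed 239 of them among 25102 IDs. GV7 to GV9 listed 163 among 21315 IDs and MII 118 among 18568, in 3 and 6 oocytes of other depths. One of them, singled out after its values were seen, was ENSMUSG00000118642, which had 46296 counts in GV1 to GV6, 25 in GV7 to GV9 and 322 in MII. Whether the RNA of ENSMUSG00000119584 was absent from GV1 to GV6 or was not counted there cannot be told apart from these files.

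Ribosomal RNA of mitochondria, which is named in the tables and was listed in all sets, differed little between stages relative to its spread. The 12S RNA gene mt-Rnr1 stood at 4003 CPM over the summed GV counts and at 2476 CPM over those of MII, which is a ratio of -0.41 ± 1.39. Single oocytes ran from 915 to 9412 CPM in GV (median 2969) and from 733 to 3950 CPM in MII (median 2382). The 16S RNA gene mt-Rnr2 stood at 1913 and 927 CPM, a ratio of -0.76 ± 1.05, with a GV range of 617 to 3258 CPM and an MII range that reached 1598 CPM. Against GV7 to GV9 alone, where mt-Rnr1 stood at 2443 CPM and mt-Rnr2 at 1682 CPM, the ratios were 0.23 and -0.64. The stages overlapped for both genes, and both ratios were within their spread.

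Of the 7 named members, Malat1 and Meg3 reached 5 CPM in a stage, and the stages overlapped for both. With ENSMUSG00000119584 this gives 3 measured members. None of the 3 was at least 2-fold lower in MII, where 15.8% of the 10410 measured genes were. At least 2-fold higher was 1 of the 3, ENSMUSG00000119584 itself, where 12.9% of all measured genes were, and nothing is read from a member chosen for this difference. It was also the only member with every MII oocyte above every GV oocyte relative to the median gene, a pattern seen in 1.62% of measured genes. The reverse pattern was seen in 0.845% of measured genes and in none of the members.

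Malat1 was low in both stages and varied most within GV. In GV1 to GV9 it had 174, 0, 20, 28, 77, 39, 6, 28 and 20 counts, which is 36.2, 0, 2.82, 5.31, 13.0, 8.04, 1.53, 7.71 and 6.11 CPM. In MII1 to MII6 it had 4, 2, 0, 3, 7 and 9 counts, or 7.46, 1.57, 0, 2.35, 8.97 and 9.88 CPM. GV1 stood far above all others. The remaining GV oocytes ran from 0 to 13.0 CPM and the MII oocytes from 0 to 9.88 CPM. Over the summed counts GV held Malat1 at 9.11 CPM (8.23 to 10.1, an exact Poisson 95% interval) and MII at 4.21 CPM (2.72 to 6.21), for a ratio of -0.80 ± 1.92, smaller than the spread. Without GV1 the ratio was -0.16. Set against GV1 to GV6 alone it was -1.04, and -0.01 with GV7 to GV9 as the GV group. Leaving out MII5 and MII6, the eggs with the largest share of ENSMUSG00000119584, gave -1.73. GV1 was also the oocyte with the highest sum over 20 cumulus and granulosa cell markers, 489 CPM with 17 of the 20 listed, where the other GV oocytes stood at 255 to 398 CPM with 8 to 15 listed and MII oocytes at 231 to 330 CPM with 3 to 7. Over the GV oocytes most of the sum came from Serpine2 (121 to 205 CPM in GV) and Nr5a2 (48.9 to 132 CPM in GV), which were counted in all 15 oocytes. Each in its own highest GV oocyte, which was not GV1 for every gene, Inha, Amh, Foxl2 and Gja1 reached 145, 23.7, 20.4 and 13.6 CPM. These 4 genes were at 0 in every MII oocyte. GV2, at 297 CPM with 14 of the 20 markers listed, had 0 counts of Malat1. The part of cumulus and granulosa cells in the Malat1 level of GV1 was not tested.

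Meg3 was the only member with a count in all 15 oocytes. It had 48, 46, 61, 30, 44 and 24 counts in GV1 to GV6 (9.99, 10.8, 8.59, 5.69, 7.44 and 4.95 CPM). In GV7 to GV9 it had 3, 22 and 7 counts (0.77, 6.05 and 2.14 CPM). In MII1 to MII6 it had 6, 5, 4, 21, 1 and 1 counts, or 11.2, 3.91, 3.45, 16.5, 1.28 and 1.10 CPM. MII4 and MII1 exceeded every GV oocyte, while MII2, MII3, MII5 and MII6 were below every oocyte of GV1 to GV6. Summed, Meg3 was at 6.62 CPM (5.88 to 7.44) in GV and at 6.40 CPM (4.53 to 8.78) in MII, for a ratio of 0.25 ± 1.51. The sign rested on MII4, without which the ratio was -0.56. It was -0.03 with GV1 to GV6 and 1.33 with GV7 to GV9 as the GV group, where Meg3 was 2.96 CPM (2.02 to 4.17).

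Kcnq1ot1 was seen in all 9 GV oocytes and in 2 of 6 MII oocytes. Its counts in GV1 to GV9 were 52, 42, 14, 4, 18, 44, 1, 1 and 8, which is 10.8, 9.85, 1.97, 0.76, 3.04, 9.08, 0.26, 0.28 and 2.44 CPM. In MII it had 3 counts in MII2 (2.35 CPM), 5 in MII3 (4.32 CPM) and 0 in the other oocytes. GV1, GV2 and GV6 were high, GV7 and GV8 had 1 count each, and both MII values lay within the GV range. The summed levels, 4.28 CPM (3.68 to 4.94) and 1.35 CPM (0.58 to 2.65), were below the 5 CPM limit in both stages. In CPM, GV was 3.17-fold above MII (95% counting interval 1.58 to 7.46). The ratio relative to the median gene was -1.30 ± 1.70, but 0.78 against GV7 to GV9 alone and -1.67 against GV1 to GV6. Without MII3, which held 5 of the 8 MII counts, it was -2.25, and without GV1 and GV2 it was -0.66. Over oocytes the median was 2.44 CPM in GV and 0 in MII. With every oocyte thinned to 536101 counts of other genes, the total of the shallowest, Kcnq1ot1 was seen in 7 of 9 GV and 2 of 6 MII oocytes, and the ratio was -2.30. Kcnq1ot1 is antisense to Kcnq1, which had 1601 counts in GV and 239 in MII (ratio 0.40 ± 1.33), and without a stated strand reads of the overlap cannot be told apart.

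The sets of GV files also differed from each other in these RNAs. In GV7 to GV9 against GV1 to GV6 the ratio relative to the median gene was -0.99 for Malat1, -1.32 for Meg3 and -2.41 for Kcnq1ot1. Of these 3 genes, all measured there, 2 were at least 2-fold lower in GV7 to GV9, as were 20.2% of the 10856 genes measured in that comparison, and none was at least 2-fold higher, as were 18.1%. Of MII against GV1 to GV6 the background was 16.6% lower and 13.3% higher, with Malat1 and Kcnq1ot1 past 2-fold on the lower side. Of MII against GV7 to GV9 it was 21.1% and 21.5%, with Meg3 past 2-fold on the higher side and Malat1 and Kcnq1ot1 below 5 CPM in both groups.

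Neat1, Rpph1, Rn7sk and Rmrp were at or near 0 in both stages. Neat1 had 7 counts in GV (1 in GV2, 3 in GV6, 1 in GV7 and 2 in GV9) and 3 in MII (2 in MII1 and 1 in MII2). Its GV level over its MII level was 0.32 with a 95% counting interval of 0.0735 to 1.93, so a difference was not detectable at this depth. Rpph1 had 1 count in GV5 and 1 each in MII5 and MII6. Those 3 counts lie in a gene that shares sequence with Ccnb1ip1. Rn7sk and both Rmrp entries were listed in no file, and no source used here says whether they were among the genes counted.

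**Figure D2:**
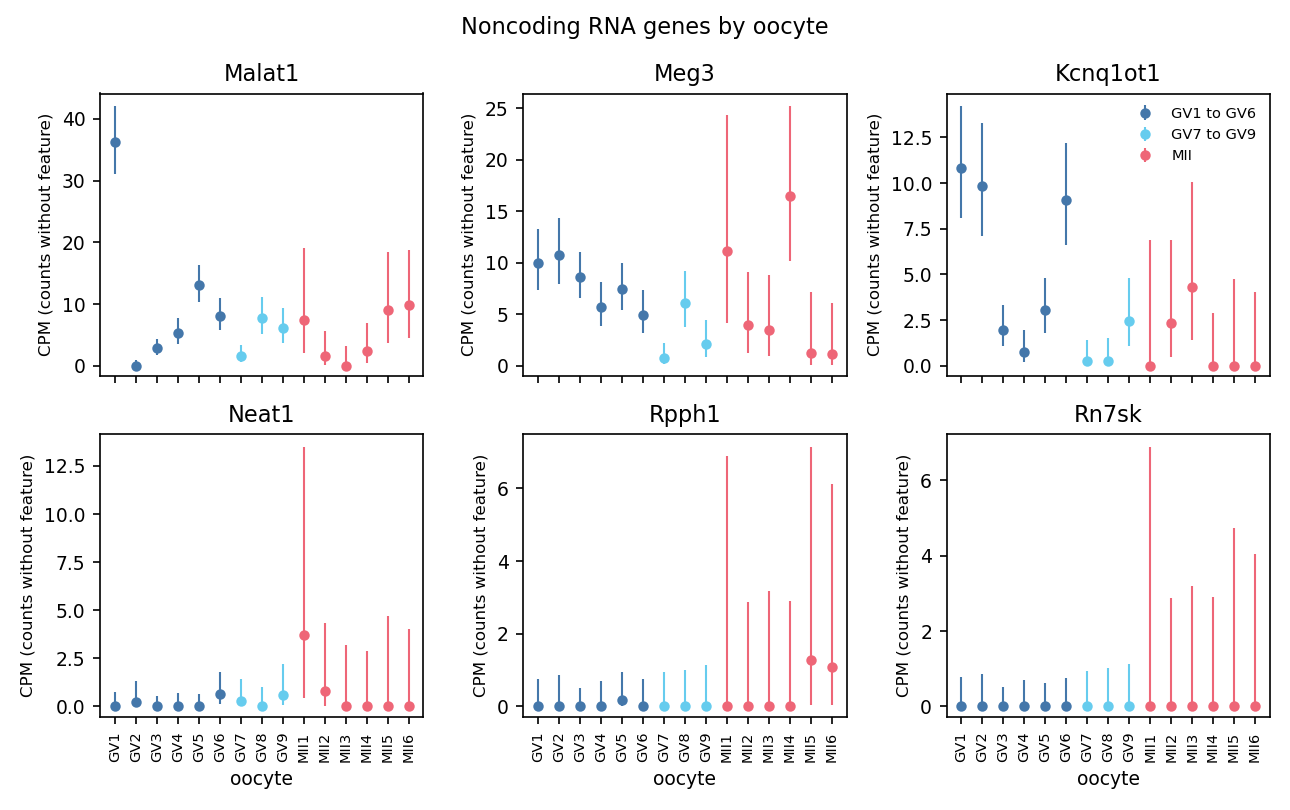
CPM (total without ENSMUSG00000119584) of 6 named genes in each oocyte, with exact Poisson 95% intervals. Malat1 stands highest in GV1 at 36.2 CPM, Meg3 in MII4 at 16.5 CPM and Kcnq1ot1 in GV1 at 10.8 CPM, and Rn7sk is at 0 in all 15 oocytes, as is Rmrp, which is not drawn.

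Per length, the order of the 4 long RNAs was the same in both stages for the first 2 places. In CPM per kilobase of exon, Malat1 (6983 nt) stood at 1.30 in GV and 0.603 in MII, and Meg3 (18089 nt) at 0.366 and 0.354. Kcnq1ot1 (93092 nt) stood at 0.0459 and 0.0145, and Neat1 (20771 nt) at 0.00783 and 0.0243. In MII the order of Kcnq1ot1 and Neat1 rests on 8 and 3 counts. Single oocytes of Malat1 and Meg3 overlapped widely in CPM, and in MII their places rest on 25 and 38 counts.

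The genes whose CPM followed the members most closely over the 15 oocytes were taken by Spearman's rho among all measured genes, as a description of points that share libraries and depth. For ENSMUSG00000119584 they were the lincRNA Gm10874 (0.95), the splicing kinase gene Clk2 (0.94) and the thymosin gene Tmsb10 (0.94). Its ranks are tied at 0 in GV1 to GV6, higher in GV7 to GV9 and highest in MII. Its rho therefore largely follows file set and stage. Tmsb10 had medians of 59.4 CPM in GV1 to GV6, 188 CPM in GV7 to GV9 and 384 CPM in MII, and unlike ENSMUSG00000119584 all 3 genes were listed in all 6 oocytes of GV1 to GV6. For Malat1 they were Eloa (0.84), which encodes an elongin subunit, Gm47432 (0.83) and the autoimmune regulator gene Aire (0.83). For Meg3 they were Mmaa (0.89), Gm16630 (0.88) and the transcription factor gene Klf4 (0.84).

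Short structural RNA genes of the nuclear genome were listed less often than longer genes, while 21 of 22 mitochondrial tRNA genes had a count. Of the 354 genes that GENCODE M21 classes as rRNA, 0 had a count, and of 1385 snRNA genes 32 did (2.31%). The shares were 6.04% of 1507 snoRNA genes, 15.7% of 51 scaRNA genes, 1.96% of 562 miscellaneous RNA genes (the class of Rn7sk) and 4.55% of 22 ribozyme genes, where Rpph1 was the 1 gene with a count. Of lincRNA genes 39.5% had a count, of antisense genes 42.2% and of protein-coding genes 81.5%. By exon length the share was 5.68% below 200 nt, 23.2% from 200 to below 400 nt (the class of Rn7sk, Rmrp and Rpph1), 35.7% from 400 to below 1000 nt and 72.8% from 1000 nt on. A list of spliceosomal and U7 snRNA genes had 13 matched by name, and none had a count. Among these 13 were Rnu3a, Rnu3b1 and Rnu73b, which are not of these kinds.

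**Figure D3:**
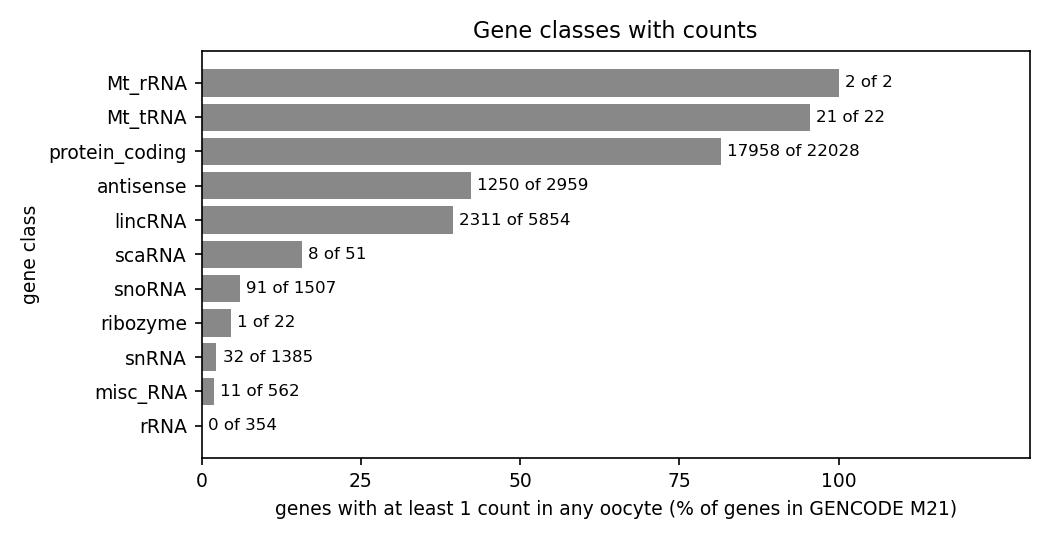
Share of the genes of each GENCODE M21 class (%) that had at least 1 count in any of the 15 oocytes, with the numbers beside each bar. The rRNA class is at 0 of 354 genes, the other classes of short nuclear-encoded structural RNAs lie between 1.96% and 15.7%, and both mitochondrial rRNA genes had counts.

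Of all measured genes, 12.9% were at least 2-fold higher in MII and 15.8% lower. Against GV7 to GV9 alone these shares were 21.5% and 21.1%. Among 17 other small structural RNAs, 7 had a count and 2 reached 5 CPM, both more than 2-fold above the median gene in MII. The Y RNA gene Rny3 had 26 counts in GV and 42 in MII, of which 36 were in MII3 (31.1 CPM), and its median over MII oocytes was 0. The Cajal body RNA gene Scarna2 had 39 counts in GV and 41 in MII, of which 24 were in MII5 (30.7 CPM). Its median over oocytes was 0.51 CPM in GV and 4.99 CPM in MII. Their ratios were 3.83 ± 2.16 and 3.21 ± 1.85, and the stages overlapped for both. Of a further 24 long noncoding RNAs matched by name, 21 had a count and 4 were measured. Of these, 2 were at least 2-fold lower in MII, and the median was -0.99, against 0 for all measured genes. Tug1 was the most abundant per length, at 33.2 and 19.4 CPM in GV and MII (-0.49 ± 1.16). The lower genes were Snhg11 and Pvt1 (-1.50 ± 1.55). Snhg11 had 265 counts in GV and 0 in every MII oocyte, and it was also at 0 in part of the GV oocytes. Gas5, a host of snoRNAs, had the highest ratio at 0.17 ± 1.34. None of 12 names matched in a list of imprinted noncoding RNAs other than the members was measured. Among these names, Nespas and Gnasas1 gave the same values, and Rtl1 is a coding gene. Airn had 125 counts in GV and 18 in MII, Rian, a neighbour of Meg3, 67 and 1, and H19 1 and 0. Of the 5 measured genes of the Kcnq1ot1 and Meg3 clusters, 1 was at least 2-fold lower (Cd81, -1.004 ± 1.93) and 0 higher, with a median of 0.40. Against GV7 to GV9 alone 0 were lower and 3 higher (Cd81 at 2.92, Phlda2 at 1.39 and Tssc4 at 1.02), with a median of 1.02. Nap1l4, the most abundant, stood at 0.08 ± 0.57, and Phlda2 had the highest ratio, 0.82 ± 2.52. Dlk1 had 51 counts in GV and 0 in MII.

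The mRNAs of the members' protein partners were mostly measured, and the medians of their lists lay between -0.39 and 0.48. For the counts in these lists, the background was 12.9% of all measured genes at least 2-fold higher in MII and 15.8% lower. Of 17 paraspeckle protein genes, all measured, 5 were at least 2-fold higher and 2 at least 2-fold lower in MII, with a median of -0.15 (-0.12 with GV1 to GV6 and 0.34 with GV7 to GV9 as the GV group). Nono, the most abundant per length, stood at 208 to 329 CPM in GV oocytes (median 247) and 270 to 904 CPM in MII oocytes (median 562). Its ratio was 1.525 ± 0.77. Relative to the median gene every MII oocyte was above every GV oocyte, as in 1.62% of measured genes. Tardbp had the highest ratio, 1.60 ± 1.14, with overlapping oocytes (12.5 to 63.1 CPM in GV and 20.5 to 174 CPM in MII). Pspc1 had the lowest, -4.22 ± 1.58, with 412 counts in GV, 2 in MII and a GV range of 1.02 to 39.9 CPM. Its ratio was -2.33 against GV7 to GV9. The other genes past 2-fold were Sfpq (1.17 ± 1.17), Dazap1 (1.52 ± 1.47) and Hnrnph3 (1.08 ± 1.57) on the higher side and Zc3h6 (-1.36 ± 0.73) on the lower. Dazap1 and Hnrnph3 stood at 0.81 and 0.34 against GV7 to GV9.

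Of the 12 genes of the 7SK particle and P-TEFb, 11 were measured, 1 was past 2-fold on the lower side and 0 on the higher, with a median of -0.39. It was -0.12 with GV1 to GV6 as the GV group and -0.67 with GV7 to GV9. Against GV7 to GV9, 5 genes were at least 2-fold lower and 1 higher, as were 21.1% and 21.5% of all measured genes. Ell2, an elongation factor, had the lowest ratio, 23.1 and 5.05 CPM (-1.88 ± 1.61). Larp7 and Mepce, which bind 7SK RNA, stood at 49.2 and 163 CPM in GV and 62.0 and 134 CPM in MII, while Rn7sk was listed in no oocyte.

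Of 11 protein genes of RNase P and RNase MRP, 10 were measured, and 2 lay past the 2-fold limit in each direction, with a median of 0.48. Rpp38, the most abundant per length, stood at 7.04 to 46.5 CPM in GV and 16.5 to 57.1 CPM in MII (0.79 ± 0.98). Pop5 had the lowest ratio, with 465 counts in GV and 8 in MII (-2.63 ± 1.19), and Rpp21 the highest, 1.58 ± 2.42, within its spread and with 84.5 CPM in its highest MII oocyte against a median of 6.90. Rpp30 was the other lower gene (-1.20 ± 1.32) and Rpp14 the other higher one (1.52 ± 1.47). The 16 measured genes of polymerase III and snRNA gene initiation had a median of -0.08, with 2 lower and 2 higher. Ssb, which encodes the La protein that binds new polymerase III transcripts, was at 162 CPM over GV and 134.5 CPM over MII counts (ratio 0.02 ± 0.74). Gtf3a, the factor for 5S rRNA genes, had the lowest ratio, -1.48 ± 1.73 (-0.87 against GV1 to GV6), and Snapc1 the highest, 1.30 ± 1.25. Bdp1 (-1.003 ± 1.05) and Gtf3c2 (1.05 ± 0.79) were just past the limit.

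The 27 measured of 30 genes of rRNA transcription and processing had a median of 0.01. Past 2-fold were 6 on the higher and 2 on the lower side, as were 12.9% and 15.8% of all measured genes. Npm1, a nucleolar chaperone and the most abundant per length, stood at 263 to 1056 CPM in GV (median 583) and 758 to 1666 CPM in MII (median 1181), a ratio of 1.11 ± 0.75 with overlapping oocytes. Gar1, a protein of H/ACA particles, had the highest ratio, 2.07 ± 1.27, and Dimt1, which methylates 18S rRNA, the lowest, -1.365 ± 1.075, with 284 counts in GV and 12 in MII. Rrn3, the initiation factor of RNA polymerase I, was named after its values were seen, as the gene of this list with every MII oocyte above every GV oocyte relative to the median gene (1.35 ± 0.66). That pattern was seen in 1.62% of measured genes. Nop58 (1.39 ± 0.73), Nob1 (1.31 ± 1.97) and Riok2 (1.02 ± 1.03) were the other genes on the higher side and Nhp2 (-1.04 ± 2.37) the other on the lower. Beside the ratio of 3.18 that ENSMUSG00000119584 had against GV7 to GV9 stand medians of 0.18 for rRNA transcription and processing and 0.03 for polymerase III initiation against the same oocytes. There, 3 genes of the rRNA list were at least 2-fold lower and 4 higher, and 2 and 1 of the polymerase III list. Of all measured genes 21.1% were lower and 21.5% higher. A link between these mRNAs and ENSMUSG00000119584 was not tested.

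**Figure D4:**
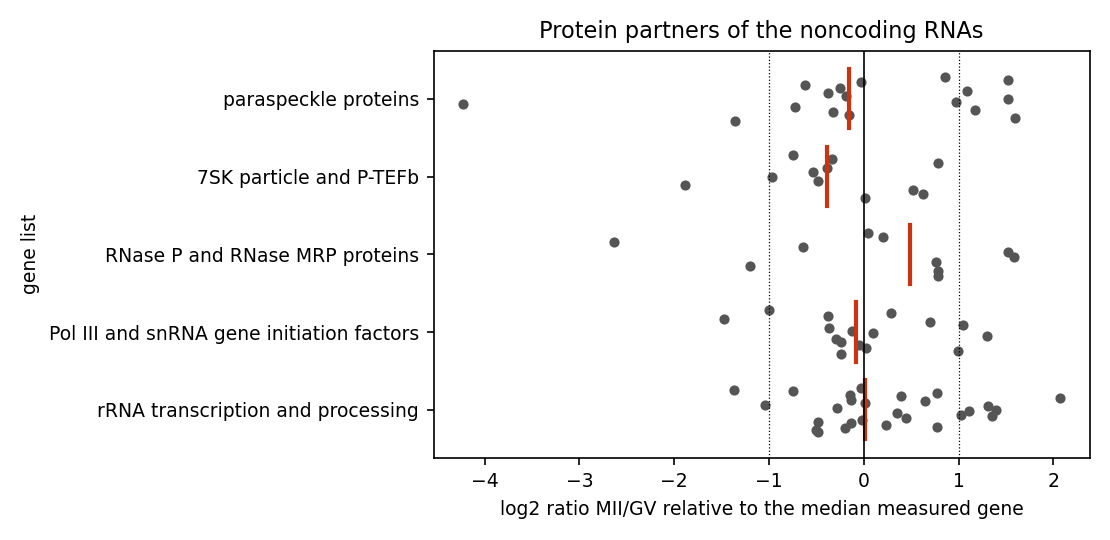
Log2 ratio MII/GV relative to the median measured gene for the measured genes of 5 lists of protein partners; each point is a gene, the red bar is the list's median, the solid line the median measured gene and the dotted lines 2-fold. The medians lie between -0.39 and 0.48, and the lowest point is Pspc1 at -4.22.

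The libraries differed in depth and held RNA of oocytes throughout. GV libraries held 3687610 to 7103063 counts and MII libraries 808641 to 2348281. The 15 oocyte markers summed to 8327 to 31515 CPM in GV and 9184 to 19880 CPM in MII, with 14 or 15 of the genes listed in each oocyte. Of the 20 cumulus and granulosa cell markers, Serpine2, Nr5a2 and Cyp19a1 were counted in all 15 oocytes and were at 210, 50.7 and 25.3 CPM over the summed MII counts (161, 85.5 and 17.4 CPM in GV). No other marker of that list reached 5 CPM over the summed MII counts, and Inha, at 40.5 CPM in GV, was at 0 there. The blood and immune markers had at most 13 counts each except Cd68, which alone reached 7.43 CPM in GV and 24.3 CPM in MII, and 5 of the 10 had no count in any oocyte. Of 8 oviduct markers, Cdh1 stood at 541 to 1325 CPM in GV and 616 to 1492 CPM in MII and made up nearly the whole sum. Epcam had 1 count in MII and the other 6 had 0. The part of other cells in the members' values was not tested.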

How the data were processed

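MATQ-seq libraries of 9 GV and 6 MII oocytes were analysed, grouped by the stage in their labels. The authors deposited 1 table per oocyte of whole-number counts by Ensembl ID, which lists only IDs with at least 1 count; an ID missing from a file was taken as 0. Per the labels' protocols, PCR of 28 cycles amplified the cDNA, which was then broken to 300 bp. GRCm39 is the build in the submitters' processing notes, with STAR 2.7.10a and cutadapt 4.0. Not given in the sources used here are the counting tool, its annotation, its use of strand, its handling of reads with several matches and any molecular identifiers, so reads from copies of a gene, above all of ribosomal RNA, may be dropped, split or piled on 1 ID.

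Names, classes, exon lengths and transcript letters came from GENCODE M21 and RefSeq (both of the older GRCm38), and 98.8% of 28785 IDs had a symbol. No coordinates are given because the builds differ. No mouse is named, so each stage counts as 1 sample and no test was made. Counts were summed per stage without ENSMUSG00000119584 and given as CPM; log2 ratios had 0.5 added to each sum, were set relative to the median of genes that reached 5 CPM in either stage, and were read against a 2-fold limit. The levels of single oocytes behind the spread and the ranges were log2(CPM + 1), from which the value of the median measured gene in that oocyte was subtracted. Intervals are 95%, exact Poisson for sums and Clopper-Pearson for shares. With total counts of 808641 to 7103063, a gene at 25 summed MII counts had an interval of 2.72 to 6.21 CPM around 4.21 (Malat1). The 51 pairs of oocytes of 1 stage had a chi-square per degree of freedom of at least 7.27, so no pair agreed within counting error. Words of 50 letters were compared between transcripts on both strands.

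The members and the 15 gene lists were chosen with earlier results of these data known. Named were all members, in each partner list the gene with most counts per length with those of lowest and highest ratio, and for each member with at least 5 CPM in a stage the 3 genes with the highest Spearman's rho. A gene that this rule names in the list of the 7SK particle and P-TEFb is not reported here. Other genes were named after their values were seen (ENSMUSG00000118642, Larp7, Mepce, imprinted genes given by counts, and the other genes past 2-fold in a partner list). Alternatives were other totals and scalings (edgeR 4.0.16 TMM and DESeq2 1.42.0 median-of-ratios factors), means or medians over oocytes, thinning, other filters and leaving out oocytes or sets. Tools were Python 3.11.15, numpy 2.4.6, pandas 2.3.3, scipy 1.17.1 and R 4.3.3.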

Additional observations from a re-analysis of the deposited data

Results flagged for a closer look

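Of 12 groups of a member in a stage with any count, 3 had an oocyte far from the others. Chance flags about 1 in 20 groups of continuous values, a rate that does not hold for counts near 0, where a single count in a group is always far from the rest. Malat1 in GV1 stood at 36.2 CPM, where the next GV oocyte was at 13.0 CPM. Neat1 in MII1 stood at 3.73 CPM, which is 2 counts, where the next MII oocyte was at 0.78 CPM. Rpph1 in GV5 stood at 0.169 CPM, which is 1 count of this kind, and the other GV oocytes were at 0.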

How the results depend on the processing

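No paired analysis was possible because the replicate numbers name single oocytes with no animal given, and no test was made. The share of ENSMUSG00000119584 in MII was 24.6% to 42.5% over all alternatives and 31.0% to 42.5% with 1 oocyte left out. In GV it was 1.12% to 2.35% with 1 oocyte left out, 0 in GV1 to GV6 and 7.39% in GV7 to GV9 alone. The count of members at least 2-fold lower was 0 to 1 with 1 oocyte left out (1, Malat1, without MII5 or MII6). It was also 1 without both, 1 in CPM of all counts and in CPM without the feature with no reference to the median gene (Malat1), 1 with a limit of 1 CPM and with no filter (Kcnq1ot1), and 2 against GV1 to GV6 (both genes). The count of members at least 2-fold higher stayed 1 with 1 oocyte left out, and was 2 against GV7 to GV9 (with Meg3) and 3 with no filter (with Neat1 and Rpph1, which have 10 and 3 counts in all). Kcnq1ot1 reversed to 0.78 against GV7 to GV9 and ran from -2.25 to -0.98 with 1 oocyte left out. Malat1 had a negative ratio and ENSMUSG00000119584 a positive one in all 32 alternatives, and Meg3 ran from -0.70 to 1.33. With any oocyte left out, the only member whose stages did not overlap was ENSMUSG00000119584, which was chosen for its MII share. The number of IDs missing from GV1 to GV6 and listed in all others also remained 1. The overlap and ID alternatives, and the list counts by file set, were chosen after seeing the data. Depth limits Neat1, Rpph1 and Kcnq1ot1 in MII, which rest on 3, 2 and 8 counts.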
